A study of Mus musculus with 12 samples.

Results

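The response of iWAT cells to diethyl phthalate (DEP) was measured in 6 libraries, 3 from cells given DEP and 3 from DMSO controls, out of 12 libraries in the series. The 6 were taken by their titles from the table of the iWAT line, and the other 6 come from AML12, a mouse hepatocyte line. DEP belongs to the phthalate esters and serves as a plasticizer and as a fragrance solvent. iWAT is a mouse line that the labels describe as white adipocytes, and the letters usually stand for inguinal white adipose tissue. Cells were given 50 µM DEP for 48 h from confluence onwards. The titles of the controls name DMSO, the usual vehicle, whereas the treatment field names only DMEM medium, with or without DEP. All 6 libraries share the line and the medium, and the labels name no genotype, transgene or differentiation step. Nothing in the labels says whether replicates were separate cultures, so that p-values here measure the spread between these libraries, which may be technical. Genes with at least 0.5 FPKM (fragments per kilobase of transcript, scaled to the mapped reads of the library) in at least 3 of the 6 libraries were tested, which kept 13482 of 29092 genes in the table.

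White fat depots hold lipid-filled adipocytes and, between them, stromal cells that include adipocyte progenitors. These stromal cells make collagen and other matrix, secrete chemokines and growth factors, and respond to interferon and to NF-kB, the transcription factor that inflammatory signals activate. Adipocyte identity depends on the nuclear receptor PPAR gamma and the C/EBP factors, whereas the cell cycle is held in check by p53 and its target Cdkn1a.

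Library totals, recovered from the FPKM values, ran from 50035049 to 54585090 reads with DMSO and from 47735539 to 49059544 with DEP, so that 1 read in a gene of 1 kb was worth 0.0183 to 0.0209 FPKM. Pearson correlations of log2(FPKM + 1) across genes were 0.9949 to 0.9953 among DMSO libraries, 0.9940 to 0.9947 among DEP libraries and 0.9927 to 0.9933 between the groups. The first principal component held 32.8% of the variance and separated the groups. DEP replicate 1 stood apart on the second, which held 19.3%, at -12.6 against 3.98 and 8.41 for the other DEP libraries. Marker genes of mature adipocytes were near absent. Only 2 of the 9 in the table passed the filter, Adipoq (adiponectin) had 4 reads in the DMSO libraries together and 2 in the DEP libraries, and Plin1 (perilipin 1, the lipid droplet coat of fat cells) had 2 and 4. Of the preadipocyte and mesenchymal markers, 7 of 9 passed, with a summed level of 471 to 476 FPKM in DMSO libraries and 431 to 441 in DEP libraries. Most of this sum was Vim (vimentin), at 273.9 FPKM with DMSO and 284.5 with DEP. Cd34 and Dpp4 did not pass, with 24 and 4 reads in the DMSO libraries together and 14 and 8 in the DEP libraries. Marker expression thus goes against a label of mature adipocytes, and the cells are called iWAT cells throughout. Of the 5 macrophage and leukocyte markers 2 passed, the lysosomal protein gene Cd68 and Lyz2, and their summed level with the other 3 was 11.2 to 12.6 FPKM with DMSO and 13.8 to 14.4 with DEP. Below the filter, Itgam, the integrin of macrophages, had 2 reads with DMSO and 0 with DEP, Csf1r had 174 and 107, and Cd79a had 16 and 22. Of 8 endothelial markers, Vwf (von Willebrand factor) passed, at 1.23 FPKM with DMSO and 1.84 with DEP. Below the filter, Kdr had 342 reads with DMSO and 408 with DEP, Tek 68 and 90, Pecam1 16 and 30, Cdh5 14 and 15, and Emcn 6 and 2. Cldn5 and Erg were at 0 in the DMSO libraries and had 2 reads each with DEP. Of 6 hepatocyte markers, the urea cycle gene Ass1 passed, at 9.63 FPKM with DMSO and 12.8 with DEP, and Hnf4a, the master factor of hepatocytes, had 14 reads with DMSO and 0 with DEP. Of 5 epithelial markers, the keratin gene Krt19 passed, Krt8 had 58 reads with DMSO and 12 with DEP and Krt18 had 46 and 2, and their summed level was 0.841 to 1.12 FPKM with DMSO and 0.515 to 0.807 with DEP. The part that these markers, or DEP replicate 1, have in the results below was not tested, other than by leaving that library out.

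With DEP, 1152 genes changed at an adjusted p below 0.05 (limma on log2(FPKM + 1), Benjamini-Hochberg over all tested genes, two-sided), which is 8.54% of those tested. There were 543 rises (4.03%) and 609 falls (4.52%), and 1084 of the called genes were protein-coding. In all 1152 the 3 DEP libraries lay wholly above or wholly below the 3 DMSO libraries, a separation shown by 31.1% of all tested genes. Falls were larger than rises. Their median log2 fold change was -0.23, against 0.16 for the rises and 0.0075 for all tested genes. A change of at least 0.5 on the log2 scale was reached by 86 falls and 12 rises. With any 1 of the 6 libraries left out the number called was 507 (DMSO replicate 3) to 689 (DEP replicate 1), and the number of rises was 193 to 274.

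**Figure D1:**
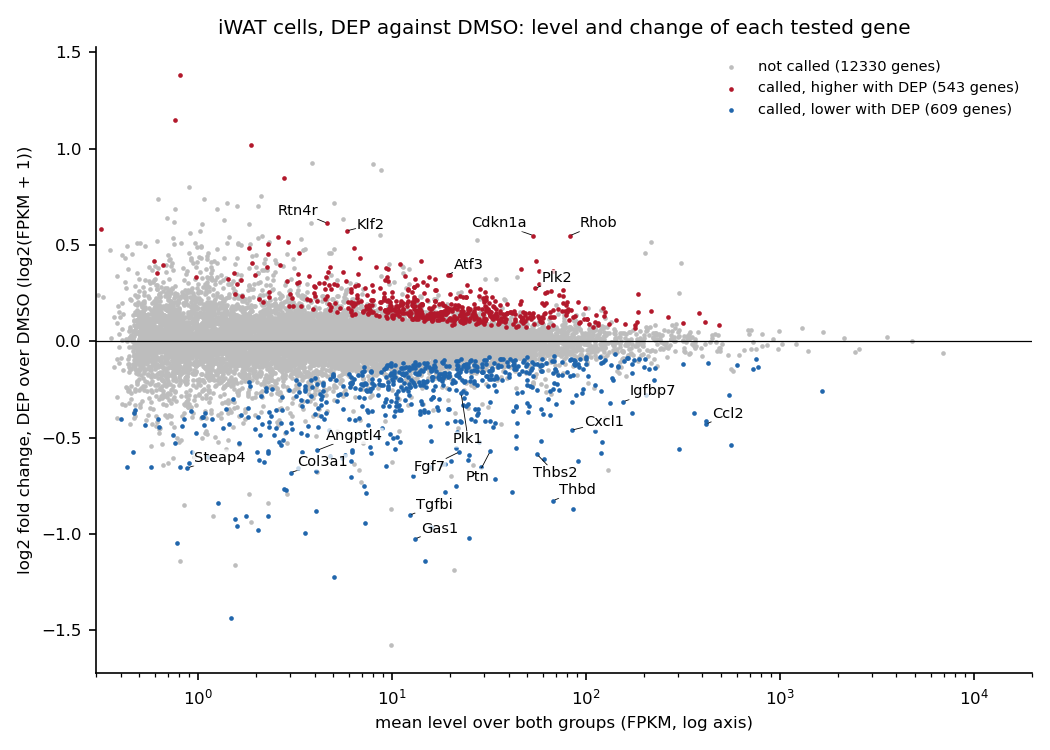
Level and change of each tested gene in iWAT cells. The x axis is the mean FPKM over both groups (log axis) and the y axis is the log2 fold change of DEP over DMSO on log2(FPKM + 1). Of the called genes, 86 falls (blue) and 12 rises (red) reach at least 0.5 in size, and Rhob and Cdkn1a are the labelled rises of high level.

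Rises were more frequent among genes of high GC content. Called rises had a median transcript GC content of 53.9%, called falls 48.4% and all tested genes 49.5%. Among genes of at least 1 FPKM on average, sorted by GC content into 8 equal bins, in the lowest bin 0.756% rose and 5.84% fell, whereas in the highest bin 10.2% rose and 3.23% fell. In the genes of high GC content (at least 57.0%), the median deviation from the gene mean over all 6 libraries, on the log2 scale, was -0.0096, -0.0186 and -0.0319 in the DMSO libraries and 0.0324, 0.0181 and 0.0108 in the DEP libraries, so that all DMSO libraries were below 0 and all DEP libraries above it. At low GC content (at most 41.8%) the groups overlapped. The deviation there was 0.00298, 0.0116 and 0.0241 in DMSO replicates 1 to 3 and -0.0379, -0.00156 and 0.00407 in the DEP replicates. The part of GC content in the rises was addressed only by taking the GC trend out of each library, a step added after seeing the data. That left 1068 called genes (7.92% of those tested, 3.06% up and 4.87% down), and 377 of the 543 rises and 571 of the 609 falls kept their call. The count with this correction is given for the lists of rises described below.

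**Figure D2:**
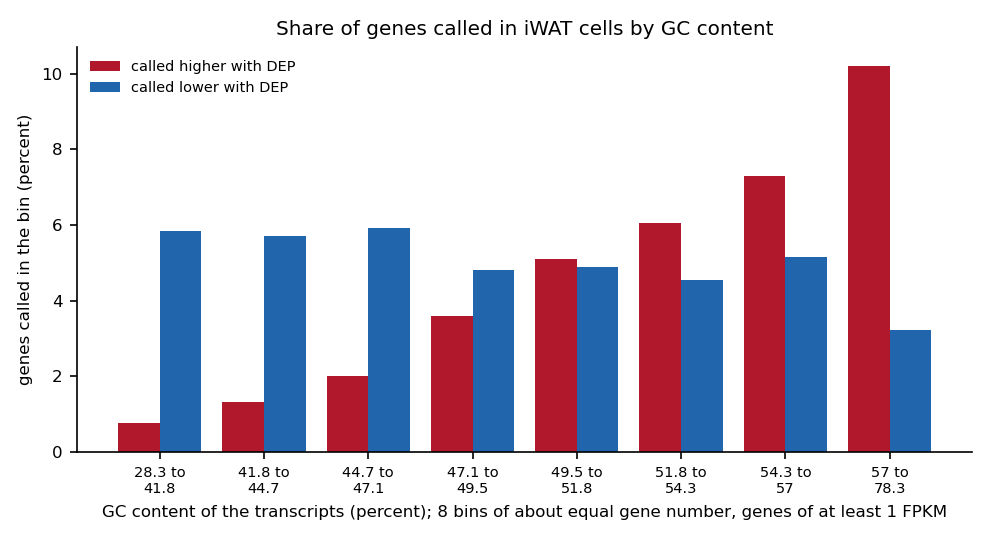
Percent of genes called in iWAT cells in 8 bins of transcript GC content (x axis, percent), among genes of at least 1 FPKM. The share called higher with DEP (red) climbs from 0.756% to 10.2% across the bins, and the share called lower (blue) lies between 3.23% and 5.91%.

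After the acute phase gene Saa3, the largest fall among the named genes was that of Gas1, a membrane-anchored co-receptor for hedgehog that is known for its rise in arrested cells. The level of Gas1 was 18.5, 17.6 and 17.9 FPKM in DMSO replicates 1 to 3 and 7.77, 8.50 and 8.78 FPKM in the DEP replicates. The highest DEP library was far below the lowest DMSO library, a log2 fold change of -1.03 ± 0.045 (SE, adjusted p = 5.81e-05). Tgfbi, a secreted matrix adaptor that TGF beta induces, fell nearly as far. Tgfbi stood at 17.1, 16.2 and 16.0 FPKM in DMSO replicates 1 to 3 and at 8.59, 8.13 and 8.22 FPKM in the DEP replicates. The groups were widely separate, and the log2 fold change was -0.90 ± 0.035 (adjusted p = 4.06e-05). Thbd encodes thrombomodulin, the receptor that turns thrombin towards activation of the anticoagulant protein C. In DMSO replicates 1 to 3 Thbd was measured at 86.0, 87.6 and 88.0 FPKM, and in the DEP replicates at 47.6, 48.2 and 50.4 FPKM. Its mean fell by 44.1%, with little spread in either group (log2 fold change -0.83 ± 0.025, adjusted p = 3.15e-05). The small Ras-like GTPase gene Rasl11a (log2 fold change -0.94), the matricellular Ccn5 (-0.91) and Slfn2, a Schlafen gene that keeps lymphocytes quiescent (-0.997), fell by a similar amount.

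**Figure D3:**
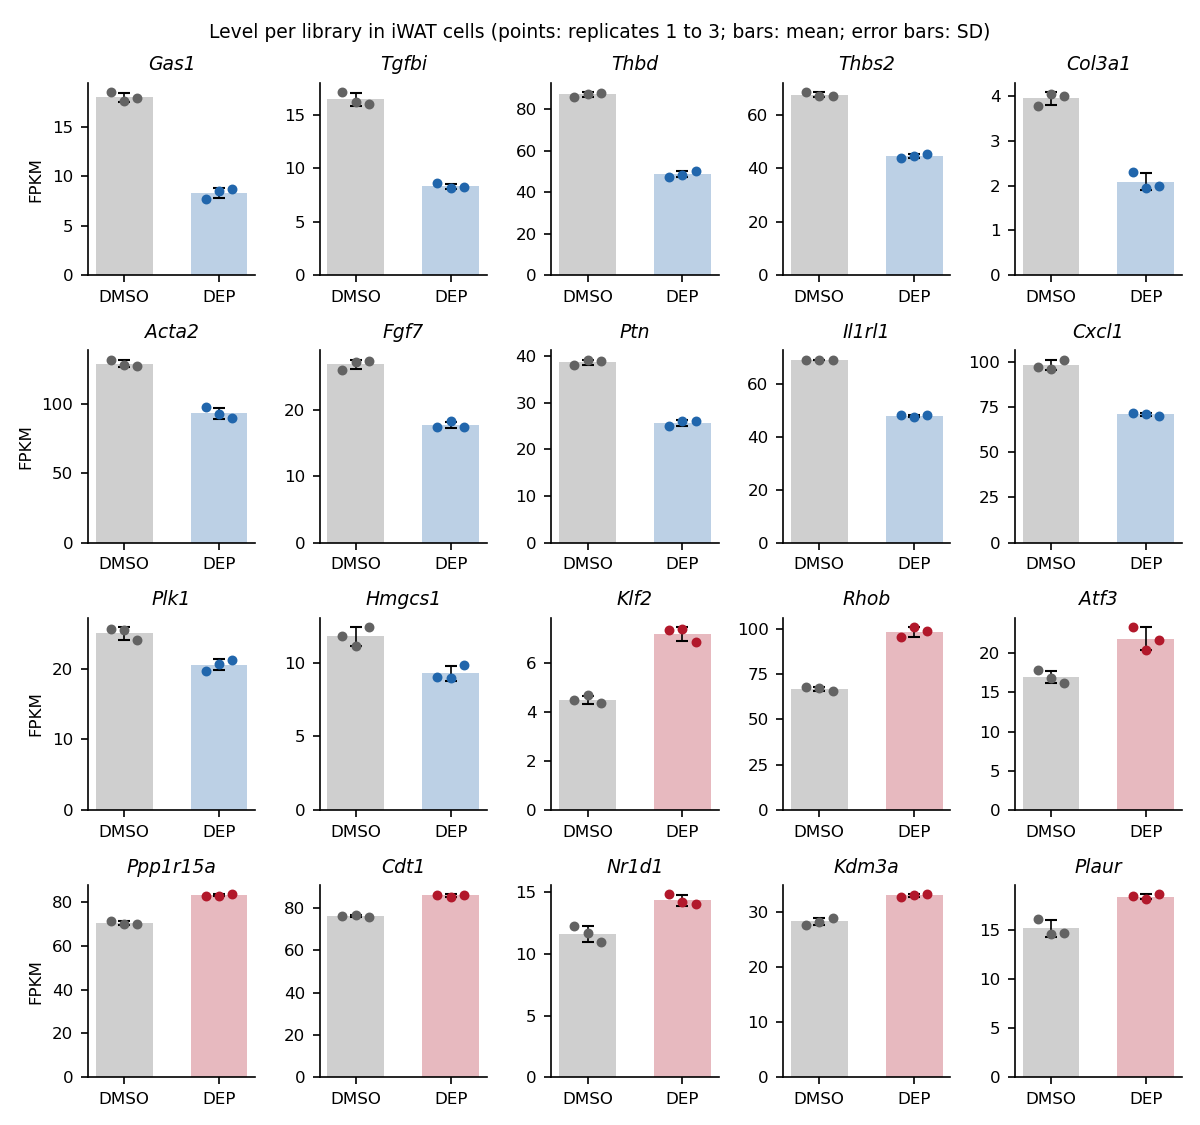
Level of 20 genes in each iWAT library (y axis, FPKM from 0). Points are replicates 1 to 3, bars are means and error bars are the SD. In every panel the 3 DEP libraries lie wholly on one side of the 3 DMSO libraries.

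Gene lists for known programmes, 53 in number, were used to describe where these changes lay. Their members were chosen with earlier results of these data known, so that counts such as 28 of 28 are a description. All members of the interferon list that were tested fell (28 of 28, median log2 fold change -0.54), as did 11 of 21 genes of MHC class I presentation (median -0.26) and 6 of 9 complement and acute phase genes (median -0.41). Over all tested genes 4.52% fell and 4.03% rose. Rises were the majority of calls in the p53 list (21 of 28, median 0.23), which with the GC correction held 16 rises and with 1 library left out 13 (DMSO replicate 1 or 3) to 16. None of 40 cytosolic ribosomal protein genes was called by limma, with a median of 0.0073, while voom on the recovered reads called 5 of them up and 4 had an unadjusted p below 0.05.

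**Figure D4:**
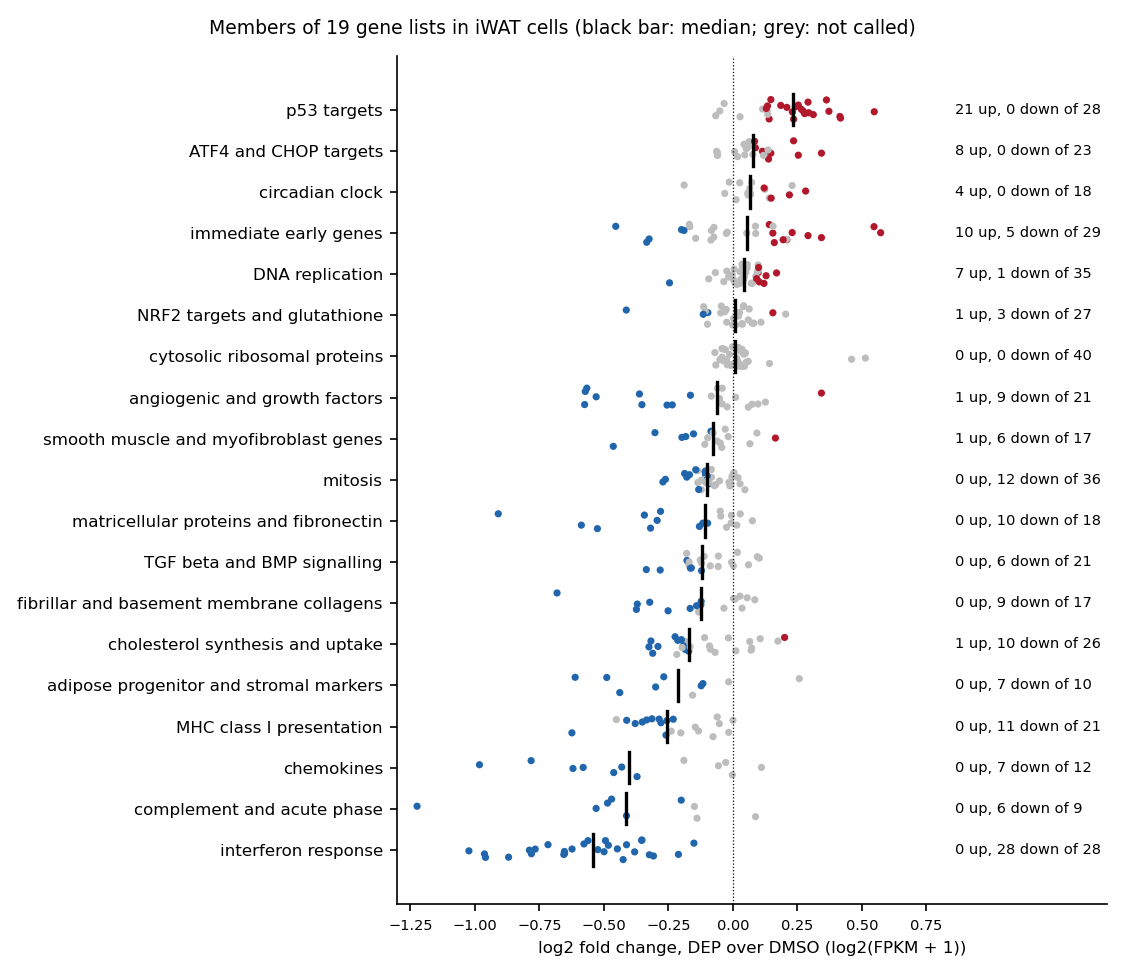
Log2 fold change of DEP over DMSO (x axis) for each tested member of 19 gene lists in iWAT cells. Points are genes, red where called higher, blue where called lower and grey where not called, and black bars are list medians. The 28 interferon genes lie wholly below 0, and the p53 targets lie mostly above it.

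Many interferon genes carry a known promoter element, and Ifit3 is shown as the example. It encodes an antiviral protein that binds viral RNA. Values for Ifit3 were 114, 107 and 114 FPKM in the DMSO replicates 1 to 3 and 61.6, 61.5 and 58.8 FPKM in the DEP replicates. Every DEP library was far below every DMSO library. The interferon-stimulated response element, searched as GAAANNGAAA on both strands, was present in the promoter windows (250 bases before to 50 after the gene start) of 12 of 20 interferon genes with a window, of 5 of 18 MHC class I genes and of 3.76% of the 9151 tested genes that have one. The windows shown here and below are RefSeq sequences of build GRCm38.p6, given 5′ to 3′ on the gene's strand with the searched motif in capitals. The deposited values were made on GRCm39, so that these coordinates belong to the sequences only. The Ifit3 window (chr19:34583279-34583578, plus strand) is shown because it holds 2 copies, which start 156 and 122 bases before the gene start and read on the opposite strand.
Ifit3: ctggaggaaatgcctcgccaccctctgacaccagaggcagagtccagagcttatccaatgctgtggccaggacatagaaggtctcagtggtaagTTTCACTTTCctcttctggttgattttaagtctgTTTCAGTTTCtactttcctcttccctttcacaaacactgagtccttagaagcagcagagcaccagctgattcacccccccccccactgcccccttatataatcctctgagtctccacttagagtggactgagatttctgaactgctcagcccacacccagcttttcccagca
Within MHC class I presentation, H2-T23, a non-classical class I heavy chain, fell from 7.67 to 4.63 FPKM (log2 fold change -0.62 ± 0.038) and the immunoproteasome subunit Psmb10 by 0.38 on the log2 scale. Class I heavy chains, like Ifit3 and Ifit3b, have near-identical copies between which reads could have been split, so their single values are uncertain. B2m, the light chain, which has no such copy, was added after its value was seen. With DMSO the 3 replicates held 1792, 1783 and 1801 FPKM of B2m, and with DEP they held 1464, 1512 and 1515 FPKM. The groups did not overlap (log2 fold change -0.26 ± 0.021, adjusted p = 0.000833).

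Chemokines and their NF-kB context fell in part. Of 12 tested genes on the chemokine list, which also holds the cytokine gene Csf1, 7 fell and none rose, with a median of -0.40. All 7 were called whichever library was left out. Cxcl1 attracts neutrophils. Levels in DMSO replicates 1 to 3 were 97.3, 95.9 and 101 FPKM for Cxcl1, and levels in the DEP replicates were 71.9, 71.0 and 70.0 FPKM. Every DMSO library was well above every DEP library (log2 fold change -0.46 ± 0.025, adjusted p = 0.00014). Ccl5, which attracts T cells and monocytes, stood at 110.3 ± 4.59 FPKM with DMSO and 71.4 ± 1.998 with DEP (log2 fold change -0.62), and Ccl8, a monocyte chemokine, at 3.04 ± 0.618 FPKM with DMSO and 1.04 ± 0.199 with DEP (-0.98). The cytokine, adhesion and NF-kB list had 5 falls and 2 rises among 21, and 1 rise was called with the GC correction or with any library left out. Il1rl1, which encodes the receptor of interleukin 33, had little spread within either group. The level of Il1rl1 was 69.4, 69.4 and 69.3 FPKM in DMSO replicates 1 to 3 and 48.5, 47.7 and 48.3 FPKM in the DEP replicates. The groups were far apart (log2 fold change -0.52 ± 0.017, adjusted p = 3.15e-05). Ptgs2 (cyclooxygenase 2, -0.36) and the adhesion molecule gene Vcam1 (-0.36) fell as well. Rela, the NF-kB subunit itself, rose, at 73.7 ± 0.958 FPKM with DMSO and 84.2 ± 0.825 with DEP (log2 fold change 0.19 ± 0.018, adjusted p = 0.00172). The feedback inhibitor genes Nfkbia (-0.10, adjusted p = 0.105) and Tnfaip3 (-0.19, adjusted p = 0.0972) were not called. Complement genes of the classical pathway were lower with DEP, C1s1 at 25.4 ± 0.535 FPKM with DMSO and 18.1 ± 0.386 with DEP and C1ra at 30.8 ± 1.5 FPKM with DMSO and 22.9 ± 0.606 with DEP. The pattern receptor gene Tlr2, which senses bacterial lipoproteins, fell by 0.40 on the log2 scale and Casp4, the sensor of cytosolic lipopolysaccharide, by 0.26.

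An NF-kB motif was searched as GGGNNTTTCC on both strands, over genes with a promoter window. It was found for 4 of 8 genes of the chemokine list (Ccl9, Ccl20, Cxcl1 and the cytokine gene Csf1). In the cytokine and NF-kB list 4 of 15 had it (Il6, Nfkbia, Nfkb2 and Tnfaip3). None of 8 genes of the complement and acute phase list had it, against 2.03% of all tested genes with a window. Genes with the motif thus included the falling Cxcl1 as well as Nfkbia and Tnfaip3, which were not called. The Cxcl1 window (chr5:90890995-90891294, plus strand) holds 2 matches close together, at 89 and 71 bases before the start.
Cxcl1: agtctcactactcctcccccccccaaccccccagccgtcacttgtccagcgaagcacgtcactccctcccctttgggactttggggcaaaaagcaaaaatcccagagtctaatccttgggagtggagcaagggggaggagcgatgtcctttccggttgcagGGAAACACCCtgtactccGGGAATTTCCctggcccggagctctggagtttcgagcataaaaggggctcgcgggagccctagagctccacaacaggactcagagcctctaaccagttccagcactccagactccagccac

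Matrix genes fell over several classes. Of 17 collagen genes 9 fell and none rose (median -0.12), with 5 to 7 called when a library was left out (5 without DMSO replicate 2). Col3a1, the fibrillar collagen of reticular fibres, had the largest fold change. Col3a1 stood at 3.79, 4.04 and 4.01 FPKM in DMSO replicates 1 to 3 and at 2.31, 1.96 and 2.0 FPKM in the DEP replicates. The DEP libraries were all below the DMSO libraries (log2 fold change -0.68 ± 0.057, adjusted p = 0.000987). The more abundant Col1a1, the main chain of type I collagen, stood at 55.4 ± 0.567 FPKM with DMSO and 44.1 ± 0.979 with DEP (log2 fold change -0.32 ± 0.022), and Col6a1 of the beaded microfibrils at 61.2 ± 1.81 FPKM with DMSO and 51.3 ± 0.310 with DEP (-0.25 ± 0.024). Of 18 matricellular genes 10 fell and none rose (median -0.11; 8 or 9 with a library left out). Thbs2, an inhibitor of angiogenesis, was among the abundant ones. In DMSO replicates 1 to 3 Thbs2 was measured at 68.6, 67.1 and 67.3 FPKM, and in the DEP replicates at 44.0, 44.7 and 45.4 FPKM. The DEP libraries lay close together and far below the DMSO libraries (log2 fold change -0.59 ± 0.02, adjusted p = 3.63e-05). Vcan (versican, a large proteoglycan, -0.53), Thbs1, which can activate latent TGF beta (-0.34), and Sparc, a collagen-binding protein (-0.32), fell with it. Among enzymes that modify collagen 5 of 20 fell and 1 rose, and the rise was not called with the GC correction or with any library left out. Loxl2, a lysyl oxidase that crosslinks collagen, went from 2.94 to 1.66 FPKM (-0.57 ± 0.054), the procollagen proteinase enhancer Pcolce from 121 to 103 (-0.23 ± 0.019) and the collagen chaperone Serpinh1 from 329 to 304 (-0.12 ± 0.016). Of 15 tested metalloproteinases and inhibitors 4 fell and none rose, with a median of -0.017, and 3 or 4 falls were called with a library left out. The falls included Mmp2 (gelatinase A, -0.37), the aggrecanase Adamts5 (-0.36) and Mmp14, the membrane-type activator of Mmp2 (-0.19).

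Of 17 smooth muscle and myofibroblast genes 6 fell and 1 rose (median -0.077). The rise was not called with any library left out, and 2 falls were called without DMSO replicate 1, 5 without DEP replicate 1 and 3 without any other 1 library. Acta2 (smooth muscle actin) carried the largest of these changes. Values for Acta2 were 132, 128 and 127 FPKM in the DMSO replicates 1 to 3 and 97.7, 92.8 and 89.8 FPKM in the DEP replicates. All DEP libraries were below all DMSO libraries (log2 fold change -0.46 ± 0.033, adjusted p = 0.000444). Tpm1 (tropomyosin) stood at 70.6 ± 0.885 FPKM with DMSO and 57.1 ± 0.589 with DEP (log2 fold change -0.30 ± 0.018). On a separate list of 8 smooth muscle and myofibroblast markers 4 passed the filter. Tagln, Cnn1, Myh11 and Lmod1 did not, at 0.243, 0.169, 0.0372 and 0.35 FPKM with DMSO. In the TGF beta and BMP list 6 of 21 fell and none rose, and 3 falls were called with any library left out. They included Id3, a BMP-induced inhibitor of differentiation factors (49.0 ± 0.946 FPKM with DMSO and 38.6 ± 1.13 with DEP, log2 fold change -0.34 ± 0.027), and the BMP antagonist Grem1 (-0.16 ± 0.018). YAP and TEAD targets showed 4 falls and 1 rise among 19, with a median of 0.012, and 2 falls were called when DMSO replicate 1, 2 or 3 was left out. The matricellular target Ccn1 fell by 0.20 on the log2 scale and Ptpn14, a phosphatase that restrains YAP, rose (0.22 ± 0.029, adjusted p = 0.00662).

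Progenitor markers were among the falling genes. Of 10 tested markers of adipose progenitors and stroma 7 fell (median -0.21; 5 or 6 with a library left out). Pdgfra, the receptor that marks fat progenitors, went from 4.40 ± 0.0971 to 2.99 ± 0.122 FPKM and the surface protein gene Cd24a from 17.6 to 14.1 FPKM (log2 fold changes -0.44 and -0.30). In bulk RNA, fewer cells of a type and less RNA per cell cannot be told apart. The adipogenic transcription factors had 1 call among 16. That call was Cebpd, an early factor of fat cell differentiation. With DMSO the 3 replicates held 5.69, 5.50 and 5.69 FPKM of Cebpd, and with DEP they held 3.45, 4.02 and 4.02 FPKM. The groups did not overlap, and DEP replicate 1 was the lowest (log2 fold change -0.46 ± 0.055, adjusted p = 0.00472). Pparg (9.84 ± 0.493 FPKM with DMSO and 9.40 ± 0.387 with DEP, adjusted p = 0.476) and Cebpb (62.1 ± 1.30 FPKM with DMSO and 59.6 ± 0.435 with DEP, adjusted p = 0.134) were not called.

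Secreted growth factors fell in 9 of 21 cases, with 5 (without DMSO replicate 1, 2 or 3) to 7 called when a library was left out. Fgf7 is the stromal growth factor of epithelia. Levels in DMSO replicates 1 to 3 were 26.1, 27.2 and 27.3 FPKM for Fgf7, and levels in the DEP replicates were 17.5, 18.3 and 17.4 FPKM. Ptn (pleiotrophin) is a heparin-binding growth factor. The level of Ptn was 38.0, 39.0 and 38.9 FPKM in DMSO replicates 1 to 3 and 24.9, 26.0 and 26.1 FPKM in the DEP replicates. In both genes the DEP libraries lay wholly below the DMSO libraries, with log2 fold changes of -0.57 ± 0.03 and -0.57 ± 0.026 (adjusted p = 0.000124 and 6.35e-05). Angpt1, the ligand of the endothelial receptor Tie2, went from 1.08 to 0.441 FPKM and Vegfd, a lymphatic growth factor, from 11.8 to 8.95 FPKM. Igfbp7, a secreted binding protein of the IGF system, fell from 173 to 139 FPKM (log2 fold change -0.31 ± 0.018). Targets of the glucocorticoid receptor fell in 5 of 15 cases with every library left out in turn, including the kinase gene Sgk1 (12.7 ± 0.388 FPKM with DMSO and 9.71 ± 0.451 with DEP) and Errfi1, an inhibitor of the EGF receptor (25.6 ± 0.148 FPKM with DMSO and 21.2 ± 0.527 with DEP). The receptor gene Nr3c1 was not called (11.9 ± 0.233 FPKM with DMSO and 12.1 ± 0.190 with DEP, adjusted p = 0.735). Among nuclear receptors the largest change was in Vdr, the vitamin D receptor. Vdr stood at 3.04, 2.999 and 2.78 FPKM in DMSO replicates 1 to 3 and at 1.80, 1.49 and 1.62 FPKM in the DEP replicates. All DEP libraries were below all DMSO libraries (log2 fold change -0.58 ± 0.061, adjusted p = 0.00263). Steap4, a plasma membrane metalloreductase that cytokines induce, fell by 64.7% from a low level of 1.31 ± 0.1248 FPKM.

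Rises were fewer among strongly changed genes. Rhob encodes an endosomal small GTPase that stress and DNA damage induce. In DMSO replicates 1 to 3 Rhob was measured at 67.7, 67.4 and 65.7 FPKM, and in the DEP replicates at 95.3, 101 and 98.8 FPKM. Every DEP library was far above every DMSO library, a log2 fold change of 0.55 ± 0.025 (adjusted p = 7.63e-05). Klf2, a Krüppel-like transcription factor known from flow responses of endothelium, rose from a lower level. Values for Klf2 were 4.48, 4.68 and 4.36 FPKM in the DMSO replicates 1 to 3 and 7.34, 7.38 and 6.86 FPKM in the DEP replicates. No library of either group came near the other group (log2 fold change 0.57 ± 0.041, adjusted p = 0.000468). Rtn4r, the receptor of the neurite inhibitor Nogo, rose from a similar level (3.47 ± 0.249 FPKM with DMSO and 5.84 ± 0.691 with DEP, log2 fold change 0.61 ± 0.081). Pvr, an adhesion molecule that natural killer cell receptors bind, rose to 27.0 ± 0.859 from 21.8 ± 0.497 FPKM. Genes better known from other tissues were also among the largest rises at low levels, namely Siglecg, a sialic acid receptor of B cells (5.72 ± 0.303 FPKM with DMSO and 8.06 ± 0.183 with DEP), the potassium channel gene Kcnj4 (1.49 ± 0.122 FPKM with DMSO and 2.30 ± 0.145 with DEP) and Chrnb1, a subunit of the muscle acetylcholine receptor (8.003 ± 0.242 FPKM with DMSO and 10.7 ± 0.633 with DEP). Each stayed called with any library left out.

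Immediate early genes, which growth factors and stress switch on within minutes, split in both directions. Of 29 tested 10 rose and 5 fell, with a median of 0.054, and with the GC correction 7 rose and 7 fell. With a library left out 6 (DMSO replicate 1 or 3) to 8 rises were called. Atf3, a stress-induced repressor, was higher with DEP in every library. With DMSO the 3 replicates held 17.8, 16.8 and 16.2 FPKM of Atf3, and with DEP they held 23.3, 20.4 and 21.7 FPKM. The log2 fold change was 0.34 ± 0.053 (adjusted p = 0.0123). The orphan receptor gene Nr4a1 fell, at 11.9 ± 0.213 FPKM with DMSO and 9.21 ± 0.191 with DEP (log2 fold change -0.33 ± 0.028, adjusted p = 0.000993).

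Among p53 targets beyond Cdkn1a, Trp53inp1, a promoter of p53-dependent death and autophagy, rose from 12 ± 0.547 to 16.4 ± 0.831 FPKM and the polo-like kinase gene Plk2 from 49.8 ± 0.619 to 60.4 ± 0.808 FPKM. Mdm2, the ubiquitin ligase that degrades p53, stood at 51.5 ± 1.69 FPKM with DMSO and 63.3 ± 1.93 with DEP (log2 fold change 0.29 ± 0.032). Targets of ATF4 and CHOP, the factors of the integrated stress response, had 8 rises and no fall among 23. With the GC correction there were 5 rises and 2 falls, and there were 3 rises without DMSO replicate 3, 4 without DEP replicate 1, 6 without DEP replicate 3 and 5 without another library. Ppp1r15a, the phosphatase subunit that restores translation after stress, had tight groups. Levels in DMSO replicates 1 to 3 were 71.3, 69.6 and 69.8 FPKM for Ppp1r15a, and levels in the DEP replicates were 82.7, 82.5 and 83.3 FPKM. The DEP libraries were all above the DMSO libraries (log2 fold change 0.24 ± 0.018, adjusted p = 0.000556). Gdf15, a secreted stress hormone that p53 also induces, was at 57.5 ± 2.67 FPKM with DMSO and 68.8 ± 1.84 with DEP (0.25 ± 0.037). The transcription factors of this pathway were not called, Atf4 at 351 ± 5.46 FPKM with DMSO and 336 ± 4.82 with DEP (adjusted p = 0.105) and Ddit3, which encodes CHOP, at 84.9 ± 2.84 FPKM with DMSO and 93.2 ± 3.23 with DEP (adjusted p = 0.0595). Chaperones of the endoplasmic reticulum had 1 call among 24 and heat shock proteins 1 among 20, which was Serpinh1.

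Clock genes rose in 4 of 18 cases (3 with the GC correction), with 2 (without DEP replicate 3 or any DMSO replicate) to 4 called when a library was left out. Nr1d1, the clock repressor REV-ERB alpha, was at 11.6 ± 0.636 FPKM with DMSO and 14.3 ± 0.429 with DEP (log2 fold change 0.28 ± 0.043) and Ciart, another clock repressor, at 12.1 ± 0.406 FPKM with DMSO and 14.3 ± 0.321 with DEP (0.22 ± 0.032). The output factor Dbp and the core gene Per2 were not called (adjusted p = 0.615 and 0.503). Hypoxia genes moved both ways, with 2 rises and 3 falls among 22 (median -0.037), and both counts held with any library left out. The lowest log2 fold change in this list was -0.57. Hif1a, the oxygen-regulated factor itself, fell from 25.9 ± 0.411 to 20.97 ± 0.253 FPKM (log2 fold change -0.29 ± 0.022), while 2 genes that HIF induces rose, the histone demethylase gene Kdm3a (28.3 ± 0.688 FPKM with DMSO and 33.0 ± 0.217 with DEP, 0.22 ± 0.023) and Ndrg1 (15.2 ± 0.327 FPKM with DMSO and 18.5 ± 0.683 with DEP, 0.27 ± 0.033). In the plasminogen system Plaur, the urokinase receptor, rose (15.2 ± 0.863 FPKM with DMSO and 18.4 ± 0.240 with DEP, 0.26 ± 0.04), and the coagulation genes F3 (tissue factor, -0.27) and Pros1 (protein S, -0.22) fell beside Thbd.

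Mitotic and replication genes differed. Of 36 mitotic genes 12 fell and none rose (median -0.099), although 3 (without DEP replicate 2 or 3) to 5 were called when a library was left out. Plk1, the kinase that drives mitotic entry and spindle assembly, changed most. The level of Plk1 was 25.6, 25.5 and 24.0 FPKM in DMSO replicates 1 to 3 and 19.7, 20.7 and 21.3 FPKM in the DEP replicates. DEP replicate 3 came nearest to DMSO replicate 3, and the groups did not overlap (log2 fold change -0.27 ± 0.037, adjusted p = 0.00787). Ccnb2, a B-type cyclin, was at 51.2 ± 2.06 FPKM with DMSO and 42.5 ± 1.09 with DEP (-0.26 ± 0.034) and Ube2c, the ubiquitin-conjugating enzyme of mitotic exit, at 27.4 ± 0.764 FPKM with DMSO and 23.9 ± 0.251 with DEP (-0.19 ± 0.026). The proliferation marker Mki67 was not called (43.9 ± 0.584 FPKM with DMSO and 45.4 ± 0.601 with DEP, adjusted p = 0.206). Of 35 DNA replication genes 7 rose (6 with the GC correction) and 1 fell, and only 2 (without DEP replicate 2 or 3 or DMSO replicate 1) or 3 rises were called with a library left out. Cdt1, which licenses replication origins, rose with tight groups. Cdt1 stood at 76.3, 76.7 and 75.7 FPKM in DMSO replicates 1 to 3 and at 86.2, 85.3 and 86.2 FPKM in the DEP replicates. The groups were apart by several times their spread (log2 fold change 0.17 ± 0.016, adjusted p = 0.0017). The helicase subunit gene Mcm3 rose by less (0.13 ± 0.017), whereas Rrm2, the regulated subunit of ribonucleotide reductase, fell (74.0 ± 1.31 FPKM with DMSO and 62.2 ± 0.626 with DEP, -0.25 ± 0.02). At the entry to the cycle Ccne1 (cyclin E1, -0.29 ± 0.038) and the inhibitor gene Cdkn1b (-0.27 ± 0.033) fell and Ccnd1 (cyclin D1, 0.16 ± 0.021) rose.

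The cell cycle homology region, or CHR, is the promoter element through which a repressor complex that p53 engages acts on mitotic genes. Its core was searched as TTTGAA on both strands, over genes with a promoter window. It was found for 20 of 29 mitotic genes, for 4 of 29 DNA replication genes and for 14.1% of all tested genes. Mki67, which was not called, has it too. The windows of Plk1 (chr7:122159185-122159484, plus strand) and Ccnb2 (chr9:70421505-70421804, minus strand) are shown because their cores lie close behind the gene start, at bases 31 and 5 counted from 1, and that of Ccnb2 has a further copy 167 bases before it.
Plk1: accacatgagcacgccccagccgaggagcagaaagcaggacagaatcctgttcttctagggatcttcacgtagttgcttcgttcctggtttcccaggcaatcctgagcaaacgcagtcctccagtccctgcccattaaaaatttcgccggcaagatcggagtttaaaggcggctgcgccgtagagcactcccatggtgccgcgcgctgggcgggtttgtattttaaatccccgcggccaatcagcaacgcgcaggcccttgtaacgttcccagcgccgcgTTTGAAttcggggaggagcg
Ccnb2: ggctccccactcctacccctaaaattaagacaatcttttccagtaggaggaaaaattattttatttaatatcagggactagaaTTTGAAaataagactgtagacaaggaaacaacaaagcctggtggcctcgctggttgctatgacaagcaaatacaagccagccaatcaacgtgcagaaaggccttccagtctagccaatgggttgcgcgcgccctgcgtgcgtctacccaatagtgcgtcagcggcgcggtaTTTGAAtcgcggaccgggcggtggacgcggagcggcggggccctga

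Cholesterol synthesis and uptake had 10 falls and 1 rise among 26 genes (median -0.17), with 5 falls called without DEP replicate 3, 6 without DMSO replicate 3 and 7 or 8 without another library. The rise was not called with the GC correction or with any library left out. Hmgcs1 makes HMG-CoA for the pathway. In DMSO replicates 1 to 3 Hmgcs1 was measured at 11.8, 11.1 and 12.4 FPKM, and in the DEP replicates at 8.99, 8.96 and 9.84 FPKM. All DEP libraries were below all DMSO libraries (log2 fold change -0.32 ± 0.05, adjusted p = 0.0128). Sqle, the squalene oxidase that forms the ring precursor, was at 14.1 ± 0.127 FPKM with DMSO and 11.1 ± 0.452 with DEP (-0.33 ± 0.033), the sterol oxidase gene Msmo1 at 18.1 ± 0.136 FPKM with DMSO and 14.6 ± 0.176 with DEP (-0.29 ± 0.022) and Stard4, a carrier of cholesterol between membranes, at 9.28 ± 0.235 FPKM with DMSO and 7.80 ± 0.236 with DEP (-0.22 ± 0.034). The sterol regulatory element was searched as TCACNCCAC on both strands, over genes with a promoter window. It was found for 1 of 18 genes of this list and for 1.43% of all tested genes. The window of Hmgcs1 (chr13:119690101-119690400, plus strand) is the 1 that holds it, 137 bases before the start.
Hmgcs1: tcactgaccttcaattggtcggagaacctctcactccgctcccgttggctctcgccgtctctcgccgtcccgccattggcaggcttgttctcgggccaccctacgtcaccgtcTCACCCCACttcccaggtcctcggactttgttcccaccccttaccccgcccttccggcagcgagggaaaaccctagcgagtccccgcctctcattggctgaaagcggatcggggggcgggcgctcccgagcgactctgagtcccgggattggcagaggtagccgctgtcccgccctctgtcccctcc
Among genes of fatty acid and triglyceride synthesis 6 of 22 fell and 1 rose (3 falls, without DEP replicate 3 or DMSO replicate 2, to 5 with a library left out, and no rise), with the desaturase genes Scd2 (105 ± 0.803 FPKM with DMSO and 88.4 ± 1.004 with DEP, -0.25 ± 0.017), Scd1 (36.6 ± 0.627 FPKM with DMSO and 32.2 ± 0.181 with DEP, -0.18 ± 0.02) and Fads2 (28.6 ± 0.947 FPKM with DMSO and 24.6 ± 0.0649 with DEP, -0.21 ± 0.027). Around the lipid droplet 4 of 13 fell with or without any 1 library. Angptl4, a secreted inhibitor of lipoprotein lipase that PPARs induce, changed most. Values for Angptl4 were 5.28, 4.98 and 5.10 FPKM in the DMSO replicates 1 to 3 and 2.95, 2.99 and 3.48 FPKM in the DEP replicates. DEP replicate 3 was the highest of its group and still far below every DMSO library (log2 fold change -0.57 ± 0.057, adjusted p = 0.00221). Lpl, the lipoprotein lipase that it inhibits (8.46 ± 0.20 FPKM with DMSO and 6.38 ± 0.242 with DEP, -0.36 ± 0.036), the lysosomal lipase gene Lipa (-0.24 ± 0.025) and the droplet coat gene Plin2 (57.6 ± 1.78 FPKM with DMSO and 48.7 ± 2.19 with DEP, -0.24 ± 0.037) fell too. Of 22 PPAR targets and oxidation genes 5 fell, but 1 (without DMSO replicate 3) to 3 were called with a library left out. The thiolase gene Acaa2 (14.2 ± 0.626 FPKM with DMSO and 11.97 ± 0.173 with DEP, -0.23 ± 0.035) was the 1 member called whichever library was left out.

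NRF2 targets and glutathione genes had 1 rise and 3 falls among 27 (median 0.0097), a larger share than the 8.54% called over all genes. The falls numbered 1 without DEP replicate 2, DEP replicate 3, DMSO replicate 2 or DMSO replicate 3, and 2 or 3 without another library. The rise was Hmox1 (heme oxygenase, 205 ± 3.45 FPKM with DMSO and 229 ± 3.29 with DEP, 0.15 ± 0.02) and the largest fall Mgst1, a microsomal glutathione transferase (24.2 ± 0.485 FPKM with DMSO and 17.9 ± 0.313 with DEP, -0.41 ± 0.025). The quinone reductase gene Nqo1 (18.7 ± 0.823 FPKM with DMSO and 19.2 ± 1.04 with DEP, adjusted p = 0.649) and Gclc, the catalytic subunit of glutathione synthesis (37.1 ± 0.357 FPKM with DMSO and 39.4 ± 1.08 with DEP, adjusted p = 0.0952), were not called. Cyp1b1, the P450 that the aryl hydrocarbon receptor induces in stromal cells, was lower with DEP. With DMSO the 3 replicates held 29.9, 30.3 and 30.4 FPKM of Cyp1b1, and with DEP they held 22.4, 23.4 and 24.6 FPKM. The DMSO libraries were close together and above all DEP libraries (log2 fold change -0.35 ± 0.033, adjusted p = 0.00171). Only 7 of 25 genes on the list of this receptor and drug metabolism passed the filter. Of these Cyp1b1 fell, and Ephx1 (epoxide hydrolase) rose (0.13 ± 0.028), a call that was kept only without DEP replicate 3 when a library was left out and that was lost with the GC correction. Lysosomal genes split, with 4 rises and 6 falls among 31 (4 rises and 6 falls with the GC correction, and 2 rises and 4 or 5 falls with a library left out). The proton pump subunit gene Atp6v0d1 (0.17 ± 0.02) and the calcium channel gene Mcoln1 (0.14 ± 0.02) rose, and the protease gene Ctsb (-0.14 ± 0.018) and the galactosidase gene Gla (-0.20 ± 0.02) fell. Splicing factors (2 falls of 29), autophagy genes (1 rise of 27) and nuclear-encoded respiratory chain subunits (3 falls of 34) were near or below the share called over all genes, and no call in these lists held with every library left out in turn.

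In AML12 cells given the same exposure, 5074 of 12929 tested genes were called (39.2%), at totals of 42845105 to 52915505 reads. An interaction term of line by treatment, fitted over all 12 libraries, tested whether the responses differed, and it was called for 4283 of 14651 genes (29.2%), 1708 higher and 2575 lower in iWAT. This balance depends on the scaling, since centring each library on its median gave 2220 higher and 2032 lower. Of the genes called in iWAT cells and tested in both lines, 568 of 946 had a called difference. Among the iWAT rises 182 were also called higher in AML12 and 90 were called lower, and 124 of the falls were also called lower and 116 higher. Over all genes tested in AML12, 23.9% were called higher and 15.3% lower, so that these counts are a description and not a measure of agreement. For many of the largest iWAT changes AML12 gives no change to compare, since Gas1 (0.00487 FPKM in AML12 controls), Tgfbi (listed at 0) and Thbd (0.0195 FPKM) were below the filter there.

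The lines responded differently in the cell cycle and in cholesterol synthesis, counted over members tested in both. All 36 mitotic genes had a lower response in iWAT than in AML12, where 35 of them rose. Plk1 changed by -0.27 on the log2 scale in iWAT and by 0.51 in AML12 (difference -0.78 ± 0.05, adjusted p = 1.97e-06). Among cholesterol genes 18 of 25 had a lower response in iWAT, Hmgcs1 at -0.32 against 0.46 (difference -0.78 ± 0.055, adjusted p = 4.1e-06). Sparc fell in iWAT and rose in AML12 (-0.32 against 0.38, difference -0.70 ± 0.026, adjusted p = 7.3e-08), as did Steap4 (-0.66 against 0.62, difference -1.27 ± 0.11, adjusted p = 1.4e-05). In the other direction 16 of 20 ATF4 and CHOP targets and 20 of 27 NRF2 targets had a higher response in iWAT, and 21 of the latter fell in AML12. Ppp1r15a rose in iWAT and fell in AML12 (0.24 against -0.98, difference 1.22 ± 0.063, adjusted p = 4.63e-07), as did Ndrg1 (0.27 against -0.88, difference 1.15 ± 0.038, adjusted p = 6.21e-08). For some genes no difference was called. Ptgs2 fell by 0.36 in iWAT and by 0.43 in AML12, with a difference of 0.063 ± 0.052, adjusted p = 0.403, and Casp4 fell by 0.26 and 0.29 (difference 0.030 ± 0.052, adjusted p = 0.715).

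**Figure D5:**
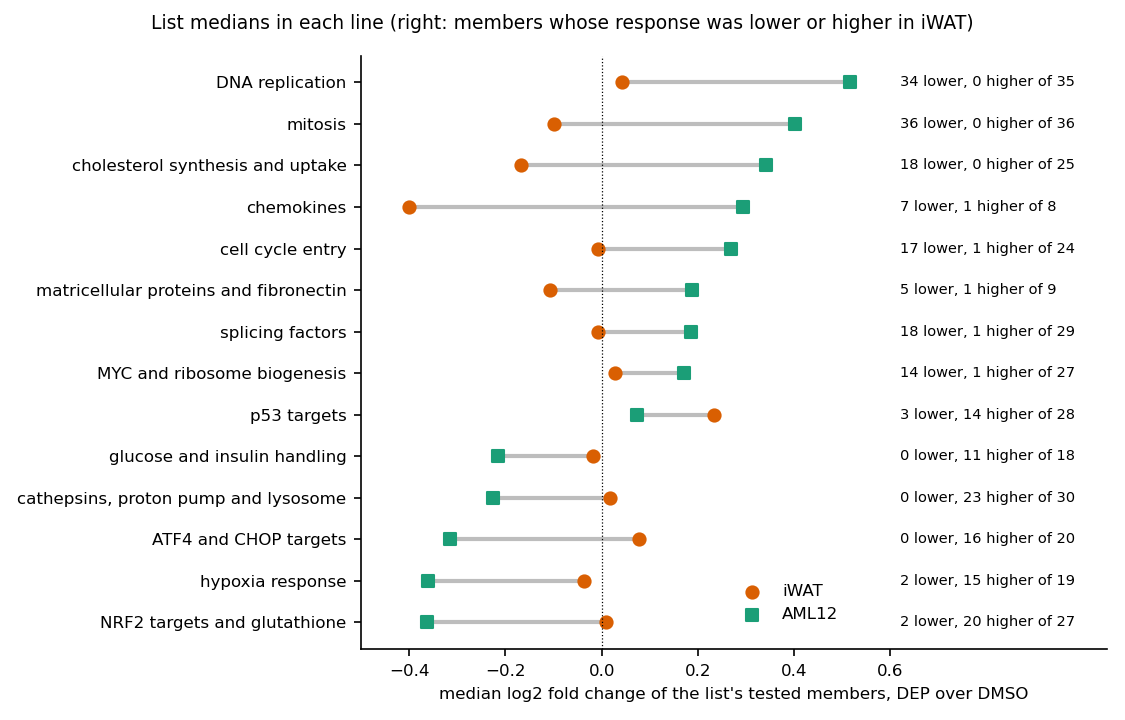
Median log2 fold change of DEP over DMSO (x axis) for 14 gene lists in iWAT cells (orange circles) and AML12 cells (green squares), each over the members tested in that line. Counts at the right give the members whose response was called lower or higher in iWAT than in AML12, of those tested in both lines. Mitosis, DNA replication and cholesterol synthesis lie to the right in AML12 and near or below 0 in iWAT.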

How the data were processed

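RNA was measured by sequencing in 6 libraries of iWAT cells, 3 per group, and in 6 of AML12 cells. The deposited values are FPKM per gene, 1 table per line. Trimmomatic (trimming), HISAT2 (alignment) and the build GRCm39 are named, per the submitters' processing notes. The counting tool, its strand setting and the annotation are not given in the sources used here. All value columns were used.

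Genes that reached 0.5 FPKM in 3 or more of the 6 libraries were tested on log2(FPKM + 1) with limma 3.58.1 (with trend) in R 4.3.3, two-sided, and called at a Benjamini-Hochberg adjusted p below 0.05 over all tested genes. A log2 fold change on this scale understates the change of low genes. The line difference was the interaction term of 1 fit over 12 libraries. Tables and figures used Python 3.11.15, numpy 2.4.6, pandas 2.3.3 and matplotlib 3.10.9. The fit was tested on simulated data. Whole reads were recovered from FPKM, library totals and exon length with a tolerance of 0.001: 89.4% of iWAT genes came out whole with the annotated length, and the reads recovered in all are 99.98% of each total. The fit on log2(FPKM + 1) did not model the count error that FPKM inherit from the reads. Depth sets that error as well as the worth of 1 read given with the library totals.

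Named genes are the 15 largest called rises and falls of at least 1 FPKM with groups that do not overlap, the 10 largest each of at least 20 FPKM, and up to 4 called members of each list by p, a gene entering under at most 2 lists. Gm and Rik names, pseudogenes and small RNAs were left out (12 rises and 5 falls in the first set, 1 and 1 in the second). Members of a list that did not pass appear only as values, and 1 gene that the rule names is not reported here. The members and lists were chosen with earlier results of these data known. Same-numbered libraries were not paired: their deviations correlated at -0.025, 0.019 and 0.029. Replicates differed beyond sampling noise (chi-square per degree of freedom 5.00 to 7.11). Alternatives were other pseudocounts and filters, centring, no trend, a replicate block, a joint fit, voom on recovered reads, a stricter threshold, each library left out, and a GC correction (loess, span 0.5) added after seeing the data.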

Additional observations from a re-analysis of the deposited data

Results flagged for a closer look

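The response to DEP was compared between iWAT and AML12 cells for those of the largest iWAT changes that were tested in both lines, and of 20 such genes 18 had a difference called by the interaction of line and treatment (limma, adjusted p below 0.05). The genes were chosen for their change in iWAT, so that this count is a description. All values here are the iWAT minus AML12 difference in log2 fold change.

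The response was lower in iWAT for the Schlafen gene Slfn2 (-1.16), the interferon gene Ifi27l2a (-0.88) and the chemokine genes Cxcl5 (-0.83) and Ccl8 (-0.80). The G2 phase gene Gtse1 (-0.29) and Chrnb1 (-0.26) rose in iWAT, with a response below that in AML12.

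Of 28 genes on the p53 list tested in both lines, the difference was called higher in iWAT for 14 and lower for 3. In AML12 10 of the 28 rose and 5 fell. Among p53 targets the response was higher in iWAT for Plk2 (0.20), Phlda3 (0.26), Ccng1 (0.33), Cdkn1a (0.36), Trp53inp1 (0.57) and Pvr (0.61). It was also higher for Rhob (0.35), Atf3 (0.65), Glipr1 (0.61), Dglucy (0.22), Prr32 (1.04) and Scgb1a1 (2.38). The iWAT calls of Glipr1, Dglucy, Prr32, Ifi27l2a and Scgb1a1 were lost with at least 1 library left out.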

How the results depend on the processing

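Of 185 named genes none changed direction under any alternative run. With a library left out this was fixed in advance, since the groups of every called gene did not overlap. The runs without trend and with the replicate block leave the fold change as it is, so that they could not change a direction either. Counts of calls moved more. The total of 1152 called genes, with 543 rises and 609 falls, was 664 (293 and 371) with no filter, 673 (277 and 396) without trend, 1995 (1054 and 941) with voom on the recovered reads and 357 (118 and 239) at an adjusted p below 0.01, and with 1 library left out it was 507 to 689 (193 to 274 rises and 314 to 423 falls). The replicate block, for numbers that did not pair the libraries, gave 503 (190 and 313). Other settings stayed within 1.5 times. The line difference was called for 2646 genes (998 higher and 1648 lower in iWAT) at an adjusted p below 0.01 and, centred on library medians, for 4252 (2220 higher and 2032 lower), against 4283 (1708 and 2575) as deposited. Of the p53 targets 13 rose with no filter, without trend and below 0.01, and 13 to 16 with a library left out. Of the mitotic genes 5 fell with no filter, 3 without trend, 4 with the block, 3 below 0.01 and 3 to 5 with a library left out. Of the cholesterol genes 5 fell with the block, 2 below 0.01 and 5 to 8 with a library left out. Of the immediate early genes 6 rose with the block, 5 below 0.01 and 6 to 8 with a library left out. The cause of these moves was not tested, except that fewer libraries give less power by construction. Calls of named genes were lost for 9 with the GC correction, 38 with no filter, 41 without trend, 50 with the block, 2 with voom, 7 of 180 in the joint fit, and 24 to 50 of 184 with a library left out. With 3 libraries per group and a single exposure and time, small changes in low genes could not be resolved.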

Other observations

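Some of the largest changes fell outside the naming of genes because of their names or types, and they are given here as chosen after their values were seen. 1700047I17Rik2, a protein-coding gene of unassigned function, had 479, 609 and 479 reads in the DMSO libraries and 39, 82 and 69 in the DEP libraries, a log2 fold change of -1.43. The pseudogene Rps27a-ps2 had 518, 371 and 625 reads with DMSO and 204, 201 and 189 with DEP, and its reads can be shared with its parent gene. Small RNA genes with a handful of reads moved both ways. Mir1964 fell, with 8, 4 and 6 reads in the DMSO libraries and 0, 2 and 0 in the DEP libraries. Mir6975 fell too, with 2, 3 and 2 against 0, 1 and 0, and 3 others rose. Mir7651 had 0 reads in every DMSO library and 5, 6 and 4 in the DEP libraries, Snora47 had 5, 10 and 4 against 14, 27 and 16, and Snord35a had 5, 8 and 11 against 18, 16 and 16.

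Scgb1a1, a secretoglobin of airway club cells, had the largest rise among the named genes. It had 0, 6 and 0 reads in the DMSO libraries and 45, 18 and 37 in the DEP libraries. The call was lost without DMSO replicate 1 or DMSO replicate 3 (adjusted p up to 0.0636).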
